A study of Homo sapiens with 6 samples.

Results

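The imprinted 14q32 miRNA cluster was profiled in the hepatocellular carcinoma cell line Hep3B, of human origin, transfected with the plasmid pcDNA3.1 carrying HDAC6 (HDAC6, 3 arrays) or with the empty plasmid (Mock, 3 arrays). HDAC6 removes acetyl groups from tubulin and other proteins, mostly in the cytoplasm. The members are the rows whose miRNA number is 1 of 44 numbers assigned to the cluster, with the letter and the arm ignored and with star (passenger) and precursor rows left aside. Rows were present for 13 of those numbers, which gave 13 members among 581 probes with values. The deposited values had passed a filter of unstated rule, so why the other numbers lack rows is unknown. The study asked which miRNAs HDAC6 regulates in this cancer. Per the labels, RNA of 3 extractions was mixed into a pool for each condition, so the 3 arrays of a group may be repeated hybridizations of that pool and the p-values measure only the spread between arrays. The HDAC6 level and the share of cells that took up plasmid were not analysed here, and fewer cells with a miRNA and less of it per cell cannot be told apart.

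The 14q32 cluster is one of the largest groups of miRNA genes in the human genome. It lies in the DLK1-DIO3 imprinted domain, where the maternal chromosome transcribes the long non-coding RNAs MEG3, MEG8 and MEG9 together with the miRNAs, and the paternal chromosome expresses the protein-coding genes DLK1, RTL1 and DIO3. A differentially methylated region upstream of MEG3 sets which parental copy is active. Some of the miRNAs are transcribed antisense to RTL1, and many of the others arose by tandem duplication of a common ancestor. The cluster is active in placenta and brain and is low in most adult liver.

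The members that passed the test are shown first by their mature sequences, from RefSeq on GRCh38.p14, because they show which probes have a known arm and how far the members resemble each other. The deposited names give 1 mature sequence for 5 members (miR-127-3p, miR-433-5p, miR-665, miR-485-5p and miR-323-5p, which RefSeq names miR-323a-5p). The other 8 names give no arm, so each arm listed by RefSeq is printed for those shown. Capitals mark the seed, bases 2 to 8.
miR-665: aCCAGGAGgcugaggccccu
miR-127-3p: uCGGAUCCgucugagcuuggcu
miR-433-5p: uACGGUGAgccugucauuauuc
miR-323a-5p: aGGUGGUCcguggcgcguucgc
miR-493-5p: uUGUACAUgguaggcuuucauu
miR-493-3p: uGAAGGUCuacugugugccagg
miR-494-5p: aGGUUGUCcguguugucuucucu
miR-494-3p: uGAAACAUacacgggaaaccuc
miR-382-5p: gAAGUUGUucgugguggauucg
miR-382-3p: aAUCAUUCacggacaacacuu

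For the 13 members, 20 mature arms of RefSeq were used. These were the arm in the deposited name where it gives one, and otherwise each arm in the RefSeq copy used, which held only miR-668-5p for miR-668. They carried 20 distinct seeds, so none of the 20 shared a seed with another. Whole sequences were compared among these 20 alone, and seeds also with the other mature sequences of RefSeq. The closest pair among 190 comparisons was miR-323a-5p and miR-494-5p, with 16 identical bases of 22 at an ungapped shift of at most 3. The miR-382-5p sequence matched each of miR-323a-5p, miR-494-5p and miR-485-5p at 15 of 22 bases. The seed of miR-494-5p is also that of miR-323b-5p and miR-410-5p, and the seed of miR-541-3p is that of miR-654-5p, all from chromosome 14. Outside the cluster, the seed of miR-485-5p is also that of miR-6884-5p (chromosome 17) and the seed of miR-412-3p that of miR-6754-3p (chromosome 11). None of these 5 was among the array's names. The probe sequences were not used here, so binding of one member by another's probe could not be checked.

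On the arrays the members present moved in both directions, as did the probes of the whole array. Of the 13 members, 5 rose in HDAC6 (miR-665, miR-127-3p, miR-323-5p, miR-493 and miR-382), 2 fell (miR-494 and miR-433-5p) and 6 did not pass (limma, adjusted p under 0.05 over all 581 probes). The background over the whole array was 21.3% of probes higher and 24.4% lower, and over the other 373 guide-strand probes it was 20.1% higher and 30.0% lower. The groups did not overlap for 8 of 13 members, against a background of 56.8% of all probes and 61.9% of guide strands, so non-overlap was about as common among the members as elsewhere on the array. Higher calls numbered 3 without HDAC6 1 or when each array was centred on 7 control probes, and lower calls numbered 1 without HDAC6 1, HDAC6 3, Mock 1 or Mock 3 and with that centring. Calls over all probes were fewer in the same settings, with 14.8% higher and 16.0% lower without HDAC6 1 and 13.9% higher and 14.6% lower with that centring. Other alternatives named below are quantile normalization applied again, an offset (the 25th percentile of the linear signals, added before taking log2), array weights (arrays weighted by their quality) and a replicate block (the replicate number as a covariate).

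Values below are log2 signals, quantile-normalized per the labels, on which a difference of 1 is a 2-fold change relative to the rest of the array's probes. The 581 rows do not share a common distribution, with array medians of 7.51 to 7.58. Quantile normalization applied again moved the median difference of all probes from -0.09 to 0.08. Dim members moved too, such as miR-431 (0.30 to 0.59) and miR-433-5p (-0.88 to -0.59), while miR-665 stayed at 1.52. The part of this in the members' differences was not tested.

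**Figure D1:**
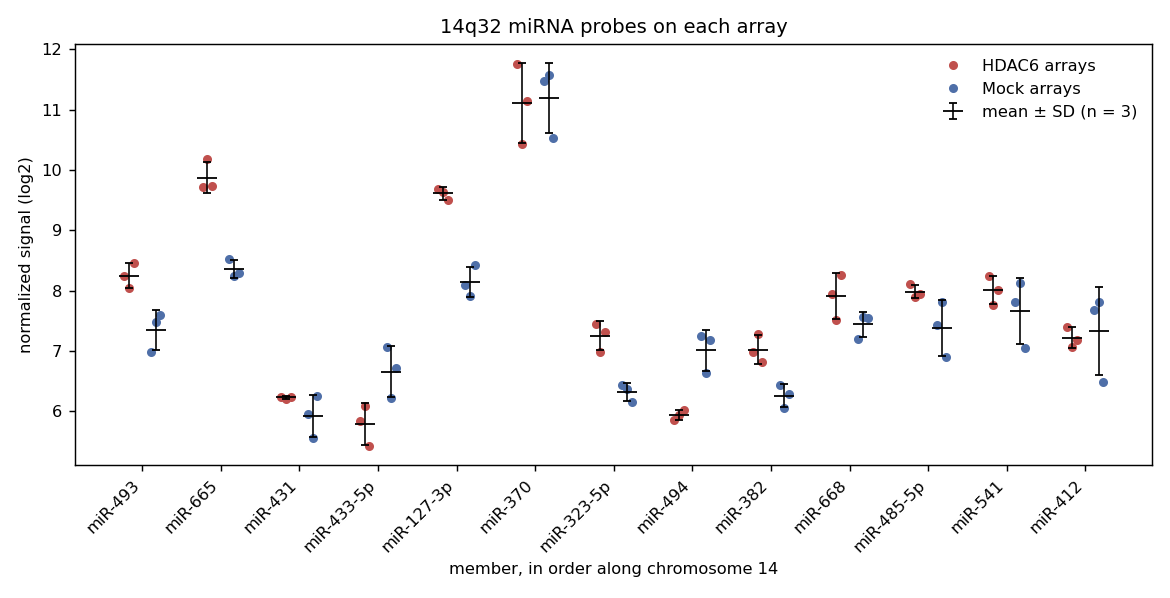
Normalized log2 signal (vertical axis) of the 13 members in the order of their position on chromosome 14 (horizontal axis), with 1 point per array and bars for the mean ± SD of 3 arrays. The HDAC6 points of miR-665 and miR-127-3p lie at 9.50 and above and their Mock points at 8.53 and below, whereas the points of miR-370 and miR-412 overlap.

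The members nearest to DLK1, from miR-493 to miR-370, included the 2 with the largest differences on all 6 arrays. MiR-665 (chr14:100875075-100875094, plus strand) had signals of 9.72, 10.18 and 9.73 on the HDAC6 arrays, against 8.53, 8.25 and 8.30 on the Mock arrays. Every HDAC6 array was above every Mock array. The log2 difference was 1.52 (SE 0.210, 2.86-fold, limma, adjusted p = 0.00272).

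MiR-127-3p, which represses the transcription factor BCL6 and is known in human bladder cancer cells for its return when DNA methylation and histone deacetylases are inhibited together, lies at chr14:100883035-100883056 on the plus strand, within the span of RTL1. Its signals were 9.69, 9.64 and 9.50 in HDAC6, against 8.10, 7.91 and 8.42 in Mock. The groups were apart by more than 1 log2 unit at their nearest values. The difference was 1.47 (SE 0.204, 2.77-fold, limma, adjusted p = 0.00272). For miR-665 and miR-127-3p the call held in all 15 alternatives of processing or array choice, with differences of 1.29 to 1.60 and of 1.21 to 1.60.

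MiR-433-5p (chr14:100881897-100881918, plus strand) lies 1.14 kb before miR-127-3p, also within RTL1. The other arm of its hairpin, miR-433-3p, is known to repress HDAC6 mRNA in human cells and was not analysed here. The miR-433-5p signals were 5.84, 6.09 and 5.43 in HDAC6, against 7.07, 6.22 and 6.71 in Mock. The groups stood apart by a narrow gap, between 6.09 on HDAC6 array 2 and 6.22 on Mock array 2. The difference was -0.88 (SE 0.282, 1.84-fold lower, limma, adjusted p = 0.0344). This call was lost without HDAC6 1, HDAC6 3, Mock 1 or Mock 3 (limma, adjusted p = 0.081, 0.114, 0.114 and 0.0731), with the offset (-0.39, 0.0696), with repeated quantile normalization (-0.59, 0.0764), when arrays were centred on control probes (0.0862) and with the replicate block (0.0523).

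MiR-493, known to repress the growth factor receptor IGF1R and to limit liver metastasis of colon cancer cells in mice, is the first member along the chromosome, with arms at chr14:100869075-100869096 and chr14:100869116-100869137. Its signals were 8.25, 8.05 and 8.46 in HDAC6, against 6.98, 7.48 and 7.60 in Mock, with no overlap. The difference was 0.90 (SE 0.235, 1.87-fold, limma, adjusted p = 0.017). The call was lost without HDAC6 1, HDAC6 3 or Mock 1 (0.0538, 0.0607 and 0.0527) and with control-probe centring (limma, adjusted p = 0.0578).

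The remaining 2 members on the DLK1 side did not pass. MiR-431, which promotes axon growth in mouse neurons and also lies within RTL1, had 6.24, 6.21 and 6.24 in HDAC6, against 5.95, 5.56 and 6.26 in Mock. Mock array 3 was above all HDAC6 arrays, so the groups overlapped. The difference was 0.30 (95% interval -0.21 to 0.82, limma, adjusted p = 0.294). It was 0.12 without Mock 2 and 0.47 without Mock 3, and with repeated quantile normalization it was 0.59 and fell just short of the threshold (limma, adjusted p = 0.0507).

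MiR-370, which lies within MEG8 and is lowered by interleukin-6 signalling in human cholangiocarcinoma cells, had 11.75, 10.43 and 11.15 in HDAC6, against 11.48, 11.58 and 10.53 in Mock. HDAC6 array 2 and Mock array 3 were low and the others high, so the spread within each group (SD 0.66 in HDAC6 and 0.58 in Mock) was larger than the difference of -0.09 (95% interval -1.02 to 0.85, limma, adjusted p = 0.882). Its sign turned with array weights (0.12) and without HDAC6 2 (0.25), Mock 1 (0.06) or Mock 2 (0.11).

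In the group around miR-379 and miR-410, 7 members were present, of which 2 rose and 1 fell. MiR-323-5p (chr14:101025747-101025768, plus strand, within LOC124903407) had 7.45, 6.98 and 7.32 in HDAC6, against 6.44, 6.37 and 6.16 in Mock. The lowest HDAC6 array was above the highest Mock array. The difference was 0.93 (SE 0.206, 1.90-fold, limma, adjusted p = 0.00971), and it was 0.50 with the offset, still past the threshold.

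MiR-494 lies 3.90 kb further along, also within LOC124903407, with arms at chr14:101029648-101029670 and chr14:101029681-101029702. Its signals were 5.86, 5.94 and 6.03 in HDAC6, against 7.24, 6.63 and 7.18 in Mock. All HDAC6 arrays lay close together and below every Mock array. The difference was -1.07 (SE 0.223, 2.10-fold lower, limma, adjusted p = 0.00761). It was -0.53 with the offset, and the adjusted p stayed between 0.00194 and 0.0347 in the 14 alternatives that tested it.

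MiR-382 (arms at chr14:101054316-101054337 and chr14:101054352-101054372) had 6.98, 7.28 and 6.81 in HDAC6, against 6.44, 6.06 and 6.28 in Mock, again without overlap. The difference was 0.76 (SE 0.212, 1.70-fold, limma, adjusted p = 0.0209). The call was lost without HDAC6 1, HDAC6 2 or Mock 2 (0.0632, 0.0549 and 0.0554) and with control-probe centring (limma, adjusted p = 0.068), and with the offset the difference was 0.40.

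The other 4 members of this group did not pass. MiR-485-5p, which represses the synaptic vesicle protein SV2A in rat neurons, had 8.11, 7.90 and 7.94 in HDAC6, against 7.43, 7.81 and 6.90 in Mock. The groups did not overlap, yet the gap between 7.90 and 7.81 was narrow and the Mock arrays were spread. The difference was 0.60 (SE 0.259, 95% interval 0.00 to 1.20, limma, adjusted p = 0.092), and it passed with array weights (0.0334) and without Mock 2 (0.82, 0.0345), while without Mock 3 it was 0.36 (0.215).

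MiR-668, which represses a mitochondrial fission protein in mouse kidney, had 7.95, 7.51 and 8.26 in HDAC6, against 7.20, 7.57 and 7.54 in Mock. HDAC6 array 2 lay among the Mock arrays. The difference was 0.47 (95% interval -0.10 to 1.04, limma, adjusted p = 0.151), and it passed with array weights (0.62, 0.0363), while without HDAC6 3 it was 0.29 (0.408).

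MiR-541 had 8.24, 7.77 and 8.01 in HDAC6, against 7.81, 8.12 and 7.05 in Mock (difference 0.35, 95% interval -0.35 to 1.05, limma, adjusted p = 0.372). MiR-412 had 7.40, 7.06 and 7.19 in HDAC6, against 7.68, 7.81 and 6.48 in Mock (difference -0.11, 95% interval -0.94 to 0.72, limma, adjusted p = 0.831). Mock array 3 held the lowest of the 6 values for miR-485-5p, miR-541 and miR-412. Without Mock 3 the miR-541 difference was 0.04 and the miR-412 difference -0.53, and without Mock 2 the miR-412 difference was 0.14.

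**Figure D2:**
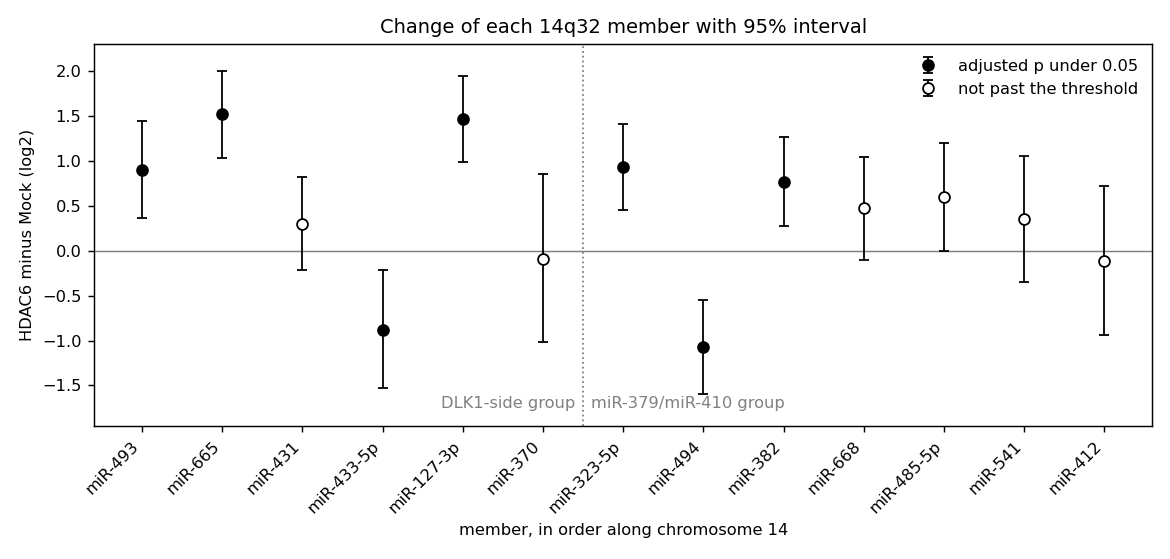
Log2 difference, HDAC6 minus Mock, of each member (vertical axis) in chromosome order (horizontal axis), with the 95% interval from limma. Filled points passed an adjusted p under 0.05. The 2 lower members lie beside higher ones, with miR-433-5p at -0.88 next to miR-127-3p at 1.47 and miR-494 at -1.07 next to miR-323-5p at 0.93.

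The 13 members span 196.4 kb of chromosome 14 (chr14:100869075-101065522, counted from the mature arms). Neighbours along that stretch were compared within each array, as the signal of one minus that of the next, over the 12 neighbouring pairs. This comparison was added to the plan. The size of such a difference has no meaning by itself, because probes bind with different strength. Its change between groups measures how unequally the signals of the pair changed. The comparison of miR-433-5p with miR-127-3p gave -3.83 ± 0.27 in HDAC6 and -1.48 ± 0.39 in Mock (SD, n = 3 each). The change of -2.35 was the largest of the 12 pairs (exact permutation test, two-sided, p = 0.1, adjusted over the 12 pairs 0.133).

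MiR-323-5p minus miR-494 was 1.31 ± 0.28 in HDAC6 and -0.69 ± 0.39 in Mock, a change of 2.00, and miR-494 minus miR-382 changed by -1.84 (exact permutation p = 0.1 for each, adjusted 0.133). At the other end of the range, miR-668 minus miR-485-5p, which lie 0.16 kb apart, was -0.08 ± 0.37 in HDAC6 and 0.05 ± 0.50 in Mock, a change of -0.13 (exact permutation p = 0.7). A p of 0.1 is the smallest that 3 arrays against 3 allow, so none of these changes could pass a threshold of 0.05.

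Other products of the same hairpins were on the array for 4 of the miRNA numbers. MiR-431*, the star strand of miR-431, rose where miR-431 itself did not pass. Its signals were 7.08, 7.04 and 7.43 in HDAC6, against 6.28, 6.26 and 6.29 in Mock, with no overlap. The difference was 0.91 (SE 0.192, 1.88-fold, limma, adjusted p = 0.00782), and it passed in all 14 alternatives that tested it (adjusted p of at most 0.0405). The background among star strands was 14.5% higher and 26.5% lower. The miR-431* probe was dim, with means of 7.18 in HDAC6 and 6.28 in Mock, below the median probe (7.55).

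The array does not show that miR-431 and miR-431* differed in response. Within arrays, miR-431 minus miR-431* was -0.95 ± 0.20 in HDAC6 and -0.35 ± 0.33 in Mock (SD, n = 3 each). The change of -0.60 had a 95% interval of -1.37 to 0.16 (limma over 58 guide and star pairs of the array, adjusted p = 0.229, background 20.7% of pairs called). The 2 mature arms that RefSeq gives for this hairpin are shown here because either could be the sequence under each name.
miR-431-5p: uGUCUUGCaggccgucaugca
miR-431-3p: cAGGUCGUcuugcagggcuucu

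MiR-541*, the other star strand, had 6.42, 6.49 and 6.68 in HDAC6, against 6.64, 6.55 and 6.72 in Mock, and did not pass (difference -0.10, 95% interval -0.53 to 0.32, limma, adjusted p = 0.674). Its sign turned with repeated quantile normalization (0.14). MiR-541 minus miR-541* changed by 0.45 (95% interval -0.47 to 1.37, limma over pairs, adjusted p = 0.427), and the change was 0.10 without Mock 3 and 0.73 without Mock 2.

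Neither precursor probe of the cluster passed, against a background of 30.8% of precursor probes higher and 5.77% lower. Both probes were dim beside the median probe (7.55). Their HDAC6 and Mock means were 5.94 and 5.93 for the miR-370 precursor and 6.03 and 6.41 for the miR-154 precursor. Whether they stand above background is unknown. The miR-370 precursor had 5.88, 5.94 and 6.00 in HDAC6, against 6.17, 5.35 and 6.29 in Mock (difference 0.01, 95% interval -0.63 to 0.64, limma, adjusted p = 0.99). The HDAC6 values lay inside the range of the Mock values. MiR-370 minus its precursor changed by -0.09 (95% interval -1.31 to 1.12, limma over 75 guide and precursor pairs, adjusted p = 0.918, background 42.7% of pairs called). The miR-154 precursor, whose mature form had no row of its own, had 6.26, 5.77 and 6.04 in HDAC6, against 6.62, 5.30 and 7.29 in Mock. Its Mock values spread over almost 2 log2 units, and the difference of -0.38 did not pass (limma, adjusted p = 0.536). Without Mock 2 it was -0.93 (0.04), and without Mock 3 it was 0.06.

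Set beside other guide-strand probes, the members lay on the higher side. Their median log2 difference was 0.47, with 9 of 13 above 0, against -0.24 for the other 373 guide strands and -0.09 for all probes. The contrast was wider within the older miRNA numbers, a class set with these results known. Of the 10 members numbered under 500, 4 rose and 2 fell, with a median of 0.45. Of the 164 other guide strands numbered under 500, 9 rose and 93 fell, with a median of -0.97. The 3 members numbered from 500 had a median of 0.47, against 0.31 for the other 202. Guide strands whose name holds no miR number, such as rows named let, were in neither class. These are counts and medians with no test of the list.

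**Figure D3:**
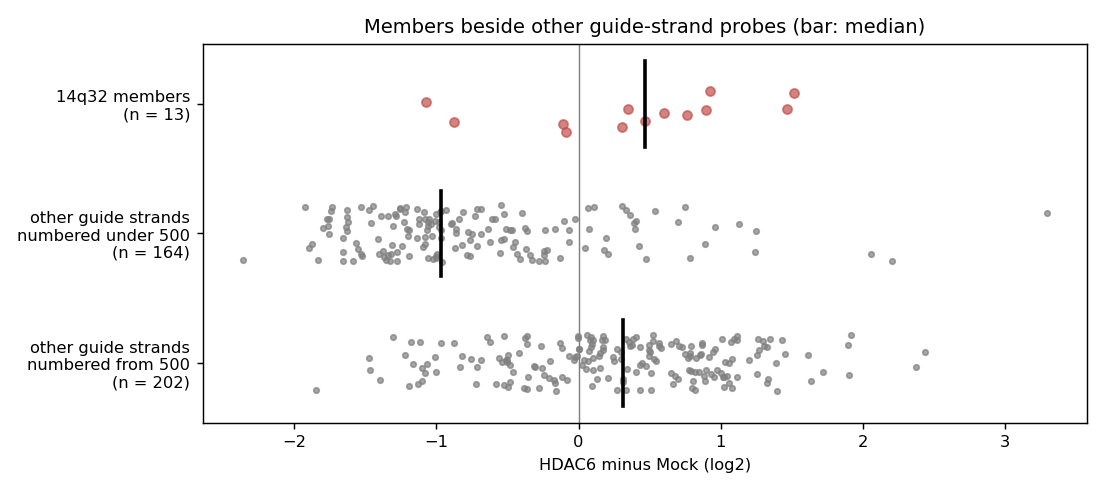
Log2 difference, HDAC6 minus Mock (horizontal axis), of the 13 members (top row), of 164 other guide strands numbered under 500 and of 202 numbered from 500, with 1 point per probe, vertical scatter for legibility and a bar at each median. The medians are 0.47, -0.97 and 0.31. Guide strands whose name holds no miR number are not shown.

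The members on the DLK1 side (6 probes, median 0.60, 3 higher and 1 lower) and those around miR-379 and miR-410 (7 probes, median 0.47, 2 higher and 1 lower) gave similar counts, and the difference between the 2 groups was not tested. Band 14q32 also holds miRNAs outside the imprinted domain, miR-342 and miR-345. MiR-342-3p fell to 7.62, 7.51 and 7.44 in HDAC6, against 9.57, 9.67 and 8.64 in Mock (difference -1.77, limma, adjusted p = 0.00359). MiR-342-5p (-0.48, adjusted p = 0.104) and miR-345 (-0.43, 0.0812) did not pass in limma, although their groups did not overlap. The precursor of miR-345 rose by 0.89 (limma, adjusted p = 0.00756, but 0.0534 with control-probe centring).

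Of 5 guide strands from other imprinted loci, 1 passed. MiR-483-3p, from an intron of IGF2, fell to 7.49, 7.77 and 7.24 in HDAC6, against 8.0, 8.30 and 8.27 in Mock (difference -0.69, limma, adjusted p = 0.0316), while miR-483-5p was at 0.96 and did not pass (0.0644). The miR-483-3p call was lost without HDAC6 1, HDAC6 3, Mock 2 or Mock 3 (0.0967, 0.106, 0.0743 and 0.0685) and with control-probe centring (0.232), and miR-483-5p passed without HDAC6 3 (1.24, 0.0408), with array weights (0.0447) and with a variance trend and robust priors (limma, adjusted p = 0.0462). Without HDAC6 2 the miR-483-5p difference was 0.56 (limma, adjusted p = 0.135). MiR-675, cut from H19, was at 0.07 (0.843), miR-296-3p at 0.41 (0.221) and miR-296-5p at -0.34 (limma, adjusted p = 0.208). None of these 5 rose in limma (1, miR-483-5p, at an unadjusted p of 0.0315), against 5 of 13 members, and that contrast was not tested. The background over the other 373 guide strands was 20.1% higher and 30.0% lower, and 5 probes are too few to set their counts apart from it. The star strand miR-335*, from the imprinted MEST locus, fell by 2.42 (limma, adjusted p = 0.0155), a call lost without HDAC6 3 (0.0524), Mock 1 (0.055) or Mock 2 (0.05). The star strand miR-675* was at 0.30 and did not pass (limma, adjusted p = 0.448).

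The following technical measures are set beside these results. The array carries a row named "none", whose content was not given in the sources used here, with 5.48, 6.46 and 5.88 in HDAC6, against 6.92, 6.07 and 8.73 in Mock. The groups of this row overlapped and its difference of -1.30 did not pass (limma, adjusted p = 0.124). All 6 values of 9 members fell inside that range of 5.48 to 8.73, and miR-370 alone was above the row on all 6 arrays. The upper end came from Mock array 3 alone, as the next value was 6.92. MiR-493, miR-665, miR-127-3p, miR-668, miR-485-5p, miR-541 and miR-412 were above the row on 5 arrays, and the remaining members on 2 to 4. No detection flag was used, so whether the dim members, or the star and precursor probes of their numbers, stand above background is unknown. Of the members that passed, miR-433-5p, miR-323-5p, miR-494 and miR-382 had mean signals below the median probe (7.55), while miR-665, miR-127-3p and miR-493 lay above it.

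Base composition is given for the same probes. Among the 5 members with 1 mature sequence, the G and C content was 70.0% for miR-665 (difference 1.52), 59.1% for miR-127-3p (1.47), 72.7% for miR-323-5p (0.93), 54.5% for miR-485-5p (0.60) and 45.5% for miR-433-5p (-0.88). Of the array's 469 mature probes, only those whose name matched 1 RefSeq sequence were used, so the following values do not cover the whole array. Across 146 such probes other than the members, the correlation of G and C content with the log2 difference was r = 0.23 (Spearman's rho 0.29), a description over probes that share arrays and normalization. Of 56 such probes with at least 60% G and C, 38 were above 0 and their median was 0.44. Of 68 between 45% and 60%, 31 were above 0, with a median of -0.12, and of 22 under 45%, 12 were above 0, with a median of 0.05. The part of base composition or of brightness in the members' differences was not tested.

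**Figure D4:**
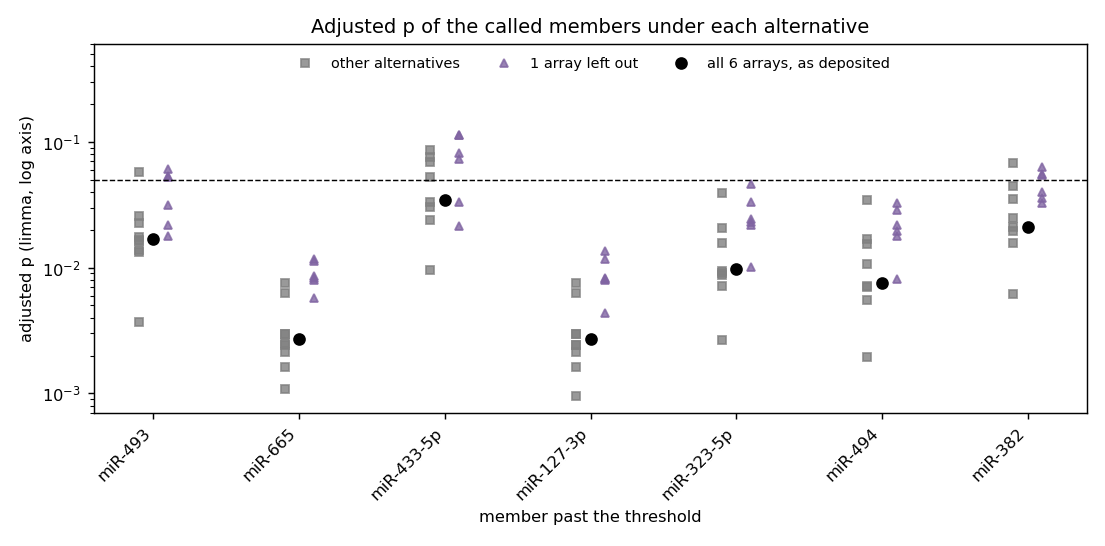
Adjusted p from limma (vertical axis, log scale) of the 7 members that passed, with all 6 arrays as deposited (black circles), with 1 array left out (triangles) and under other alternatives (squares). The dashed line marks 0.05. All points of miR-665, miR-127-3p, miR-323-5p and miR-494 lie below the line, whereas points of miR-493, miR-382 and miR-433-5p lie on either side.

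Over the array as a whole, replicate arrays correlated at r = 0.937 to 0.959 in HDAC6 and 0.922 to 0.952 in Mock, and arrays of different groups at 0.779 to 0.848. The median SD of a member over 3 arrays was 0.233 in HDAC6 and 0.338 in Mock, and for all probes it was 0.242 in HDAC6 and 0.294 in Mock. The 7 small RNA control probes had a mean difference of -0.08. All 5 liver markers fixed for the cell type check had rows, with summed signals of 11.35 to 12.69 in HDAC6 and 13.50 to 13.94 in Mock on the log2 scale, and 3 of them fell. The background was 30.0% of the other 373 guide strands lower. It was 93 of 164 for those numbered under 500, a class that holds most of these markers and miR-128a. Of 15 markers of blood, endothelium, muscle, fibroblasts and neurons, 3 had rows. MiR-143 and miR-145 summed to 7.26 to 9.17 in HDAC6 and 7.65 to 8.03 in Mock and did not pass, and miR-128a, at 5.94 to 6.29 in HDAC6 and 7.33 to 8.07 in Mock, fell. The part of these markers in the members' differences was not tested.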

How the data were processed

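Biotin-labelled total RNA (10 ug per the labels) was hybridized to GenoExplorer microRNA chips. Per the labels, arrays were read on an Axon scanner with GenePix Pro 5.0, poor spots were removed by eye, the means of 3 spots per probe were averaged, and GenePlex 3.0 applied quantile normalization and a class-specific filter. The values the authors deposited are on a log2 scale, as read from their range. Background correction and the filter rule are not given in the sources used here.

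HDAC6 was compared with Mock with limma's moderated test (lmFit, then eBayes, two-sided, no covariate, limma 3.58.1, R 4.3.3), with Benjamini-Hochberg adjustment over 581 probes. The row without values was left out. All members were named, as were all star and precursor rows of their numbers and the short comparison lists. Guide and star pairs, the comparison of neighbours with its permutation tests and the base composition were additions to the plan. Members and lists were chosen with earlier results of these data known. The fit was tested on simulated data with independent normal values for each array. Those data do not model pooled RNA or the filter, so the test checks only that the code runs as meant. Exact permutation tests used SciPy 1.17.1. Sequences are RefSeq's. Alternatives were other scalings, an offset, a filter on dim probes, other priors and weights, the replicate block, mature probes alone and each array left out. The number of arrays limits the precision.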

Additional observations from a re-analysis of the deposited data

How the results depend on the processing

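Across 15 alternatives, 164 of 189 values of single members kept their direction and their side of the threshold. Members called higher numbered 5 with all arrays, 7 with array weights, 3 with control-probe centring, 3 among probes brighter than the median, where miR-323-5p and miR-382 were not tested, and 3 to 5 with an array left out. Members called lower numbered 2, but 1 with control-probe centring, with the offset, with quantile normalization repeated and with the replicate block, 0 among the brighter probes, where neither was tested, and 1 to 2 with an array left out. In limma the 0 is a consequence of the filter, since both fell below it. The median over members ranged from 0.33 to 0.64. Precursors called lower numbered 0, and 0 to 1 with an array left out. The sign of some small differences turned: miR-370 was 0.12 with array weights and -0.42 to 0.25 with an array left out, miR-412 -0.53 to 0.14, the miR-154 precursor -0.93 to 0.06, and miR-541* 0.14 with repeated quantile normalization. The miR-370 precursor was -0.01 with median centring and with the offset, -0.07 with array weights and -0.29 to 0.18 with an array left out, and miR-370 minus its precursor was 0.02 with array weights and -0.60 to 0.39 with an array left out. In alternatives added after seeing the data, miR-675 was -0.01 with quantile normalization repeated and -0.12 to 0.28 with an array left out, and miR-675* -0.01 to 0.46. The cause of these changes was not tested. Repeated quantile normalization moved the median of all probes to 0.08, against -0.09 as deposited.

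Same-numbered arrays did not deviate together (r = 0.16, -0.086 and 0.192), so the numbers were not read as pairs. With the replicate block, miR-433-5p was at -0.88 (limma, adjusted p = 0.0523), and no other member's call changed. No detection flag was used, so signal over background limits what can be said of dim members.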
